A study of Mus musculus with 5 samples.

Results

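The genes described here are 10 transcription factors that set or oppose T helper cell fate: the Th2 factors *Gata3*, *Maf*, *Gfi1*, *Batf* and *Nfil3*, the Th1 factors *Tbx21*, *Eomes* and *Runx3*, and *Runx1* and *Bcl6*. They were found by gene name in a deposited table of 11608 genes, and a line was accepted only where its coordinates lay on the gene's own locus in mm9, the mouse genome build of the files. All 10 names were listed and 9 lines were accepted. The line named *Eomes* did not lie at the *Eomes* locus, and *Eomes* is described apart from the other 9 by the line that does.

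RNA Polymerase II phosphorylated on serine 2 of its tail, the form found on genes being elongated, had been mapped by ChIP-Seq in cultured mouse Th2 cells, with 1 library each from *Parp14*+/+, *Parp14*+/+ + PJ34, *Parp14*-/- and *Parp14*-/- + PJ34 cells. All 4 cultures began with naive CD4+CD62L+ spleen T cells of C57BL6 mice, aged 6 to 8 weeks in the study's methods, which were activated through CD3 and CD28 for 3 d with IL-4 at 10 ng/ml and an antibody to IFN-g, and then grown for 4 d with IL-4 and with IL-2 at 50 U/ml. *Parp14*-/- mice lack PARP-14 in every cell, and PJ34 inhibits PARP enzymes in general. The labels give PJ34 as 10 µM on differentiated cells, while the study's methods give a lower dose present during culture, and how many mice stand behind a library is not given in the sources used here.

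Naive CD4+ T cells take on the Th2 fate when IL-4 activates STAT6, which raises GATA3, the factor that opens the *Il4*, *Il5* and *Il13* loci. T-bet, encoded by *Tbx21*, drives the Th1 fate and *Ifng* and opposes GATA3, while BCL6 drives follicular helper T cells. PARP-14 is an ADP-ribosyltransferase known as a cofactor of STAT6, so the lineage factors stand between the signal that PARP-14 acts on and the cytokine genes.

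The value given for each gene and library is the average peak height. It is the mean, over the gene's active regions, of the largest number of DNA fragments that overlap at any base of the region, and an active region is a stretch where enriched intervals of different libraries were merged. Each of the 9 genes had 1 active region, so its value is the height of the tallest summit there and does not add up over gene length. Libraries had been reduced by the authors to equal numbers of alignments, and the median height of an interval was 9 in each. As there is 1 library per condition, no difference below has a replicate check, and p-values are left out. Beside each ratio stands its 95% Clopper-Pearson interval, exact for heights read as counts, which holds counting error and nothing else. A ratio was counted as past the outer limits of the study when it was above 1.4 or below 0.7 and the higher library had an enriched interval. The study also admits ratios between 1.2 and 1.4 or between 0.7 and 0.83 for genes whose average value is high, but on another scale than the heights used here, so counts past these inner limits of 1.2 and 0.83 are given beside the others without a minimum value. Each count was read against the 8551 genes with an interval in at least 1 of the 4 libraries.

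The deleted gene was checked first. *Parp14* had heights of 8, 11, 6.67 and 6.67 in the order *Parp14*+/+, *Parp14*+/+ + PJ34, *Parp14*-/- and *Parp14*-/- + PJ34, which holds for all values below, and intervals covered 59.2%, 53.9%, 6.95% and 8.51% of the gene, so both *Parp14*-/- libraries had the lower signal. Of 10 T cell markers 9 were listed, with intervals at 9, 8, 7 and 7 of them. Of 8 B cell markers, 7 had no interval in any library, and the exception, *Cd79a*, carried the same values as its neighbour *Rps19*. *Cd8a* had no interval in any library, and none of 4 NK cell markers was listed. Of 9 myeloid markers 4 were listed, and the tallest of them, *Cd68*, carried the same values as *Eif4a1*. *Csf1r* had heights of 8, 8.5, 6 and 5.5 with an interval in all libraries but *Parp14*-/-, *Mpo* had 8, 10, 6 and 5 with an interval in *Parp14*+/+ + PJ34, and *Itgam* had none. The part of such cells in the results was not tested. In cultures of this kind, fewer cells of a type and less polymerase per cell cannot be told apart.

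*Gata3* carried the tallest signal of the 9 genes in every library, and it alone passed the inner limits in the same direction in both genotype comparisons. No member passed the outer limits in both. Within each of the 9 genes the 4 libraries stayed close: the highest library was between 1.26 and 1.47 times the lowest. Under a looser limit of 2 times the lowest were 85.2% of all genes with an interval, and the share under 1.47 was not counted. The target cytokine genes moved further, with *Il4* at 61, 39, 29 and 18, *Il13* at 38, 33, 17 and 10 and *Il5* at 21, 21, 4 and 6. The other listed genes of Th2 output did not share this order: the IL-33 receptor gene *Il1rl1* had 6, 8, 12 and 9, and the chemokine receptor gene *Ccr4* had 17, 17, 17 and 13. Summed over the 5 genes, heights were 143, 118, 79 and 56, and over the 4 of 6 genes of Th1 output that were listed they were 69, 54.5, 62 and 49.5.

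**Figure D1:**
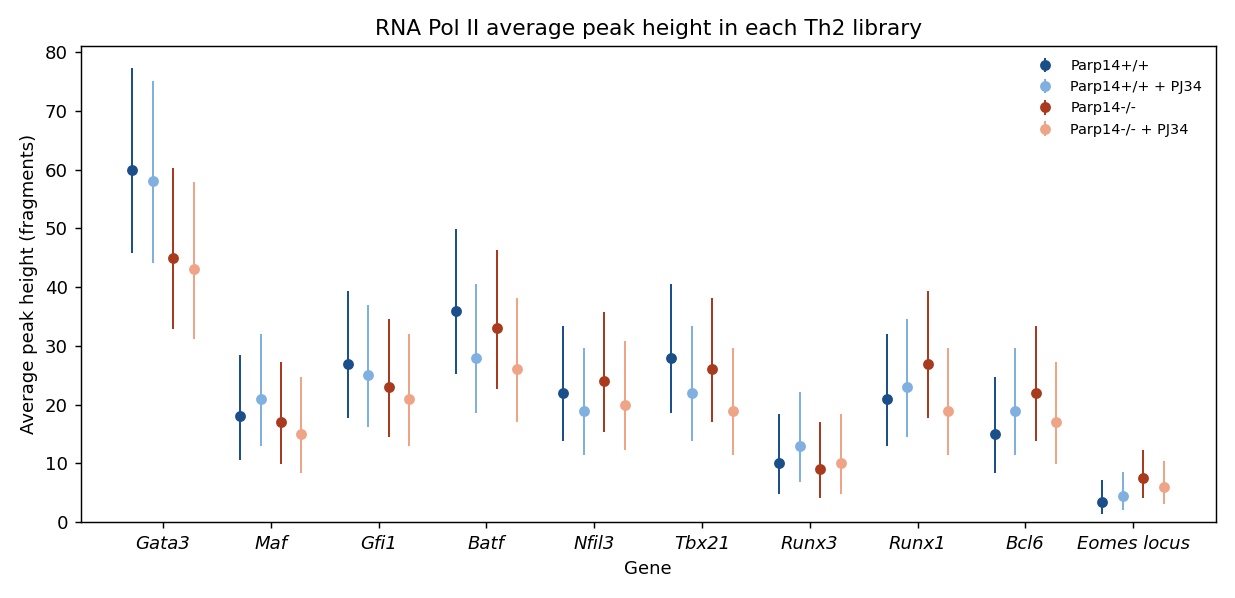
RNA Pol II average peak height, in overlapping fragments, of 9 lineage factor genes and the *Eomes* locus in each of the 4 libraries. Points are single libraries and bars are exact 95% Poisson intervals of the height taken as a count, so they show counting error and not replicate spread. *Gata3* is highest in each library, from 43 to 60, and the bars of the 4 libraries overlap within every gene.

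*Gata3*, the master regulator of Th2 cells (gene ID 14462, chr2:9778705-9799403, minus strand, 20699 bp), had heights of 60 and 58 in the *Parp14*+/+ libraries without and with PJ34, and of 45 and 43 in the *Parp14*-/- libraries. Both *Parp14*+/+ libraries lay above both *Parp14*-/- libraries, and within a genotype the untreated and PJ34 libraries lay within 2 fragments of each other. The *Parp14*+/+ to *Parp14*-/- ratio was 1.33 (0.891 to 2.01) untreated and 1.35 (0.894 to 2.05) with PJ34, between the inner limit of 1.2 and the outer limit of 1.4. The ratio of untreated to PJ34 was 1.03 (0.709 to 1.51) in *Parp14*+/+ and 1.05 (0.674 to 1.63) in *Parp14*-/-.

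When the 2 libraries of each genotype were summed, *Gata3* had 118 against 88, a ratio of 1.34 (1.01 to 1.79). It was the 1 member of 9 whose summed interval lay off 1, where 5.6% of all genes with an interval did. That share was not matched for height, and counting intervals are narrower at greater height. The call depended on scaling: heights in the PJ34 pair were higher in *Parp14*+/+ for genes in general, with a median ratio over all genes of 1.14, and after each library was scaled to a median ratio of 1 the summed *Gata3* ratio was 1.25 (0.951 to 1.68). The scaled ratio with PJ34 was 1.18, and that of *Parp14*-/- to *Parp14*-/- + PJ34 moved to the other side of 1, at 0.951.

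*Gata3* was also among the tallest of the 8551 genes with an interval. Its height exceeded that of 98.9%, 99.0%, 97.3% and 97.4% of them, with 91, 80, 213 and 202 genes above it. Enriched intervals covered the gene from end to end in every library, at lengths of 31950, 30000, 30450 and 35850 bp. The tallest summit lay 576 and 672 bp past the 3' end of the gene in the 2 *Parp14*+/+ libraries and 784 bp past it in *Parp14*-/- + PJ34. In *Parp14*-/- the tallest summit lay inside the gene, 11690 bp from its start. The 3 summits past the end fall in a window of 209 bases (chr2:9777921-9778129 in mm9, minus strand), shown because the 3' flank is where serine 2 phosphorylated polymerase peaked. Its sequence is written 5' to 3' from the NCBIM37 assembly, and capitals would mark any STAT, GATA, RUNX or T-box letters searched, of which it holds none.
*Gata3* 3' flank: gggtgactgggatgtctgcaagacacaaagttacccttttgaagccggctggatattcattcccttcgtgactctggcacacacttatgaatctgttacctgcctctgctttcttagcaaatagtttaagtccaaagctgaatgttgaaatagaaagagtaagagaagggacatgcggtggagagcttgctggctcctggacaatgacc

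Genes whose pattern over the 4 libraries was nearest to that of *Gata3* were sought among 807 genes with a summed height of at least 50 in their highest library, by the Euclidean distance of log2 heights centred on each gene's mean. The 2 nearest, 4930412O13Rik and LOC100040768, share the active region of *Gata3* and carry its values, so their signal cannot be told apart from that of *Gata3*. The next were *Gsk3b*, a serine/threonine kinase (distance 0.0534), *Picalm*, a clathrin assembly protein (0.0699), and *Ankfy1*, an endosomal protein (0.0870). *Picalm* had 71, 68, 50 and 50, so it too was higher in both *Parp14*+/+ libraries. These distances are over 4 libraries and describe likeness alone.

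*Maf*, which encodes c-MAF, an activator of *Il4* (gene ID 17132, chr8:118227153-118230794, minus strand), had heights of 18, 21, 17 and 15. The genotype ratio was 1.06 (0.515 to 2.19) untreated and 1.4 (0.688 to 2.92) with PJ34. The second is 21 to 15, exactly at the outer limit of 1.4 and not above it. Both *Parp14*+/+ libraries were above both *Parp14*-/- libraries. Intervals over *Maf* reached far beyond the gene of 3642 bp, and they were 34350 and 42450 bp long in the *Parp14*+/+ libraries against 23850 and 18000 bp in the *Parp14*-/- libraries. The *Parp14*-/- libraries also had fewer intervals genome-wide, at 10228 and 8841 against 11692 and 12014. A separate lower interval lay past the end of the gene in each *Parp14*-/- library, with heights of 6 and 8.

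*Gfi1*, a repressor that promotes Th2 cell growth (gene ID 14581, chr5:108145674-108153363, minus strand), had heights of 27, 25, 23 and 21. Its genotype ratio was 1.17 (0.648 to 2.14) untreated and 1.19 (0.640 to 2.24) with PJ34. The 2 *Parp14*+/+ libraries were again above the 2 *Parp14*-/- libraries, by 2 to 6 fragments. The tallest summits lay upstream of the start in all 4 libraries, at 6958, 6222, 1876 and 910 bp. The active region also serves *Evi5* and LOC100042473, which carry the same values, so the signal cannot be assigned to *Gfi1* alone.

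*Gata3*, *Maf* and *Gfi1* were thus the 3 of 9 members in which both *Parp14*+/+ libraries exceeded both *Parp14*-/- libraries. This order was seen in 26.5% of all genes with an interval. All 3 are Th2 factors, as are 5 of the 9 members. The 3 genes held the order after scaling, where 21.2% of genes did. The reverse order, which 10.7% of genes had, was seen in none of the 9, and after scaling in *Bcl6*.

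*Batf*, an AP-1 family factor needed for helper T cell differentiation (gene ID 53314, chr12:87027670-87050037, plus strand), had heights of 36, 28, 33 and 26. Here the libraries separated by treatment, with both untreated libraries above both PJ34 libraries. The ratio of untreated to PJ34 was 1.29 in *Parp14*+/+ and 1.27 in *Parp14*-/-, and 1.28 (0.882 to 1.86) over both genotypes. The genotype ratios were 1.09 (0.661 to 1.81) untreated and 1.08 (0.609 to 1.91) with PJ34. In 3 libraries the tallest summit stood at the start of the gene, 21 bp upstream of the table's start in *Parp14*+/+ + PJ34 and in *Parp14*-/-, and 11 bp downstream of it in *Parp14*-/- + PJ34. In *Parp14*+/+ the tallest summit lay 18907 bp into the gene, 3460 bp before its end. The 250 bases before the first annotated *Batf* exon (chr12:87027369-87027618 in mm9, plus strand) are shown because 3 of 4 libraries peak beside them. Capitals mark a GATA site (AGATAA or its reverse complement) and a RUNX site (TGTGGT).
*Batf* upstream: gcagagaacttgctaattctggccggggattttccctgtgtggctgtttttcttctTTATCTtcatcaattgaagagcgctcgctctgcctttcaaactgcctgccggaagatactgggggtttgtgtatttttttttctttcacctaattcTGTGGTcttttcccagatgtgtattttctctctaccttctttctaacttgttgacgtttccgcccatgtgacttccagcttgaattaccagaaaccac

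*Nfil3*, a basic leucine zipper factor that acts on cytokine genes in Th2 cells (gene ID 18030, chr13:53062578-53076408, minus strand), had heights of 22, 19, 24 and 20. It was the Th2 factor with ratios below 1 in both genotype comparisons, at 0.917 (0.490 to 1.71) and 0.95 (0.480 to 1.88). Both untreated libraries were above both PJ34 libraries, by 2 to 5 fragments, and this order was lost after scaling. The tallest summit lay 3937, 3801 and 4049 bp past the end in 3 libraries and 745 bp upstream of the start in *Parp14*-/-.

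*Tbx21*, the gene of T-bet (gene ID 57765, chr11:96959385-96976594, minus strand), was not low in these Th2 cultures. Its heights of 28, 22, 26 and 19 stood beside those of *Gfi1* and above those of *Maf* in every library. The genotype ratio was 1.08 (0.609 to 1.91) untreated and 1.16 (0.598 to 2.26) with PJ34, and the ratio of untreated to PJ34 was 1.27 (0.702 to 2.33) in *Parp14*+/+ and 1.37 (0.729 to 2.62) in *Parp14*-/-. Both untreated libraries exceeded both PJ34 libraries. *Batf*, *Nfil3* and *Tbx21* shared this order, seen in 11.8% of all genes with an interval, and *Batf* and *Tbx21* kept it after scaling, where 13.4% of genes had it. Intervals covered 96.5%, 78.1%, 100% and 89.5% of *Tbx21*. The height of 28 in *Parp14*+/+ came from a summit 5784 bp past the end of the gene, and a second interval at the gene start reached 13. The height of 22 in *Parp14*+/+ + PJ34 also came from a summit past the end. There the tallest interval on the gene itself reached 20, below the 21 of *Maf* in that library. The heights of 26 and 19 in the *Parp14*-/- libraries came from summits inside the gene, so the genotype ratios compare different places. The T-bet target *Ifng*, the signature cytokine of Th1 cells, had 22, 20, 16 and 14, with genotype ratios of 1.38 (0.690 to 2.80) and 1.43 (0.686 to 3.06).

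A separate interval lay upstream of *Tbx21* in all 4 libraries. Its summits lay between genes, 11759 to 11887 bp before the start of *Tbx21* and within 128 bp of each other. The interval was 1 of 2 such positions beside the 9 genes, out of 25 flanking intervals within 15 kb, and was chosen after its values were seen. Its heights were 12 and 18 in the *Parp14*+/+ libraries and 25 and 23 in the *Parp14*-/- libraries, so both *Parp14*-/- libraries were the higher. In the active region of *Tbx21* the heights of the genotypes overlapped. The ratio was 0.480 (0.220 to 0.991) untreated, 0.783 (0.398 to 1.52) with PJ34 and 0.625 (0.382 to 1.01) over both. Of 4977 active regions with an interval in both untreated libraries, 2.53% had an untreated interval that lay off 1. The nearest annotated genes are *Tbkbp1*, Gm11572 and *Tbx21*, and which of them the signal belongs to was not tested. It lies outside the active region of *Tbx21*, which ends at 96979050. In *Parp14*-/- + PJ34 the interval ran from 96982651 to 96998850 and so reached into *Tbkbp1* (chr11:96997487-97011026). *Tbkbp1* had average heights of 17, 18.5, 23 and 17.5 over 2 active regions. As active regions merge the intervals of all libraries, these averages take in the same signal and are no separate measure of it. The stretch that holds the 4 summits with 50 bases on each side (chr11:96988303-96988531 in mm9, minus strand, 65.5% G and C) is shown because the same position peaked in every library. Capitals mark a STAT site with 3 spacer bases (TTCNNNGAA).
*Tbx21* upstream interval: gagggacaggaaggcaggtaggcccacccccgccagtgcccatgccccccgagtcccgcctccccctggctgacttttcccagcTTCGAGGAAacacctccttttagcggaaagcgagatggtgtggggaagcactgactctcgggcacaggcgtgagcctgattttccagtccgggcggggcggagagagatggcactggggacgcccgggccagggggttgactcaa

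**Figure D2:**
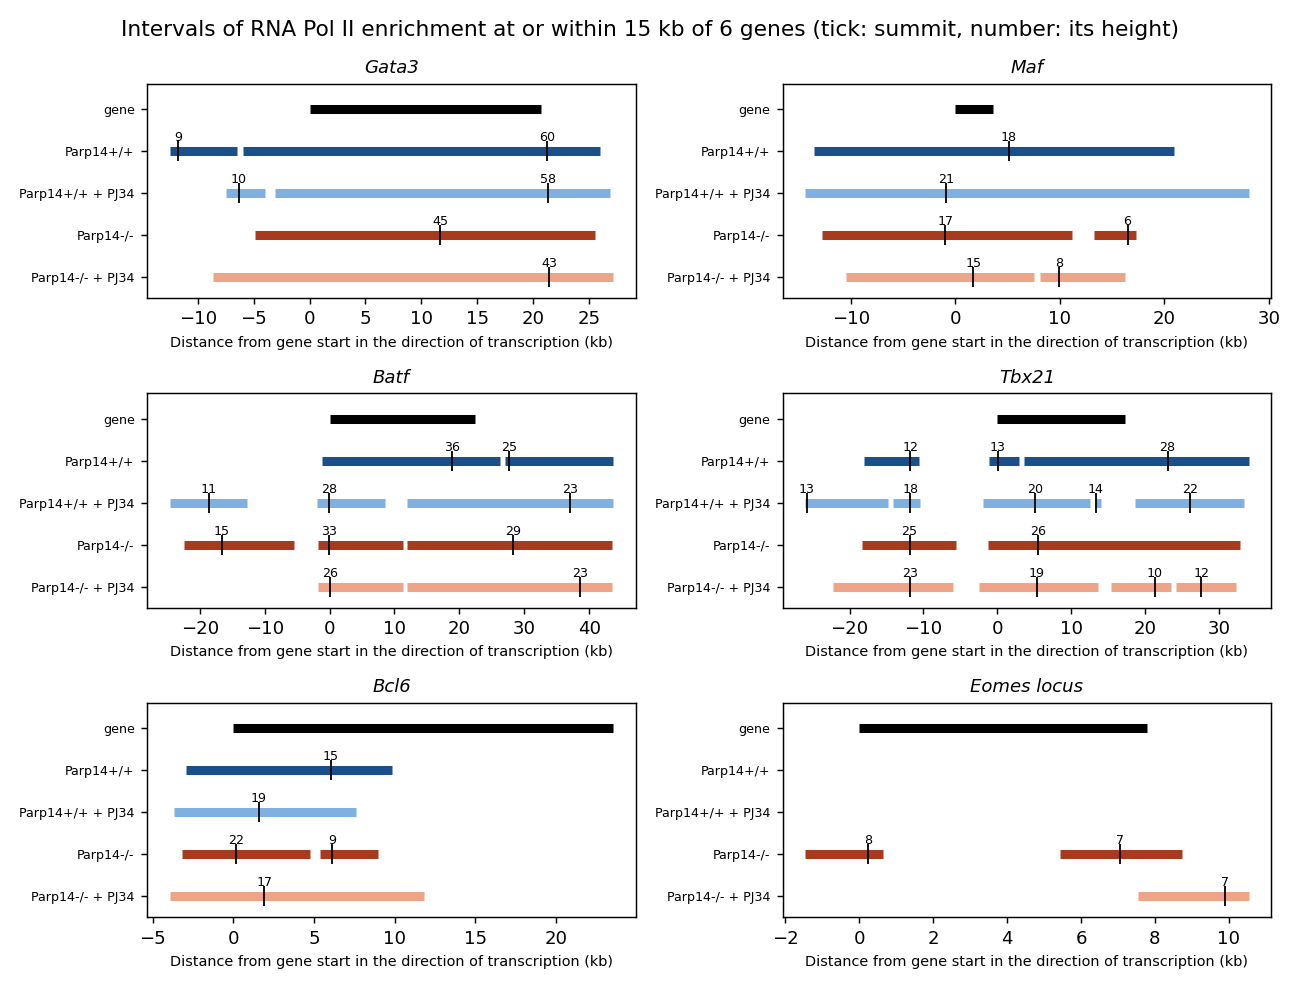
Enriched intervals at or within 15 kb of 6 genes, drawn to scale from the gene start in the direction of transcription, in kb, with a row for each library. The black bar is the gene, coloured bars are intervals, ticks are summits and numbers are summit heights in fragments. The *Batf* summits of 28, 33 and 26 stand at the gene start, and the upstream *Tbx21* summits of 12, 18, 25 and 23 line up in all libraries. The *Eomes* locus has called intervals in the *Parp14*-/- libraries only, with summits of 7 or 8, below the median interval height of 9. Its average heights in the *Parp14*+/+ libraries, without a called interval, were 3.5 and 4.5.

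*Runx3*, which works with T-bet on *Ifng* and silences *Il4* (gene ID 12399, chr4:134676560-134733905, plus strand), had the lowest heights of the 9 genes in every library, at 10, 13, 9 and 10. Genotype ratios were 1.11 (0.406 to 3.09) and 1.30 (0.527 to 3.31), intervals that span a change of over 2 times in either direction untreated. Intervals covered 24.6%, 31.9%, 17.8% and 16.7% of this gene of 57346 bp. A second position found in all 4 libraries lay 11184 to 11568 bp past its end, with heights of 9, 15, 13 and 9.

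The line named *Eomes* lay at chr7:4796562-4817781 and was not accepted. The line at the *Eomes* locus (chr9:118387462-118395250, plus strand) carried the *Eomes* transcript accession but the name *Nr2c1*. *Eomes* encodes the T-box factor eomesodermin, known mainly from CD8 T cells and NK cells. It had 2 active regions and average heights of 3.5, 4.5, 7.5 and 6, all below the median gene height of 8.5 to 10 in these libraries. Neither *Parp14*+/+ library had an enriched interval there. *Parp14*-/- had 2, of heights 8 and 7, and *Parp14*-/- + PJ34 had 1, of height 7. How many of all genes had intervals in the *Parp14*-/- libraries only was not counted. From summed heights of 7, 9, 15 and 12 the genotype ratio was 0.467 (0.161 to 1.22) untreated, 0.750 (0.279 to 1.94) with PJ34 and 0.593 (0.298 to 1.14) over both. The untreated ratio was past the outer limit of 0.7, and at this depth the difference was within counting error. *Cd8a* was without an interval in all 4 libraries, with heights of 4, 6, 3 and 4.

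*Runx1*, a regulator of T cell development known to restrain *Gata3* (gene ID 12394, chr16:92604349-92697573, minus strand), had heights of 21, 23, 27 and 19. The genotype ratio was 0.778 (0.418 to 1.43) untreated and 1.21 (0.631 to 2.35) with PJ34. The ratio of *Parp14*-/- to *Parp14*-/- + PJ34 was 1.42 (0.761 to 2.70), past the outer limit of 1.4. It was 0.998 by covered length. That call rested on the value of 27 in *Parp14*-/-, whose summit lay in the active region but outside the intervals on the gene as the table bounds it, where the tallest summit was 21. A tallest summit on the gene lay past its end in all 4 libraries, by 2396 to 3132 bp, and in *Parp14*-/- a second summit of the same height of 21 lay 68 bp inside the start.

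*Bcl6*, the factor of follicular helper T cells (gene ID 12053, chr16:23965138-23988698, minus strand), had heights of 15, 19, 22 and 17. The genotype ratio was 0.682 (0.329 to 1.38) untreated, below the outer limit of 0.7, and 1.12 (0.550 to 2.29) with PJ34. Both changed side when base pairs covered by intervals replaced height, to 1.18 untreated and 0.644 with PJ34. In the untreated pair *Bcl6* and *Runx1* were the members other than *Nfil3* with ratios below 1. Intervals covered 41.8%, 32.2%, 35.4% and 50.1% of *Bcl6*, and the tallest summits lay 6041, 1577, 169 and 1913 bp into the gene.

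**Figure D3:**
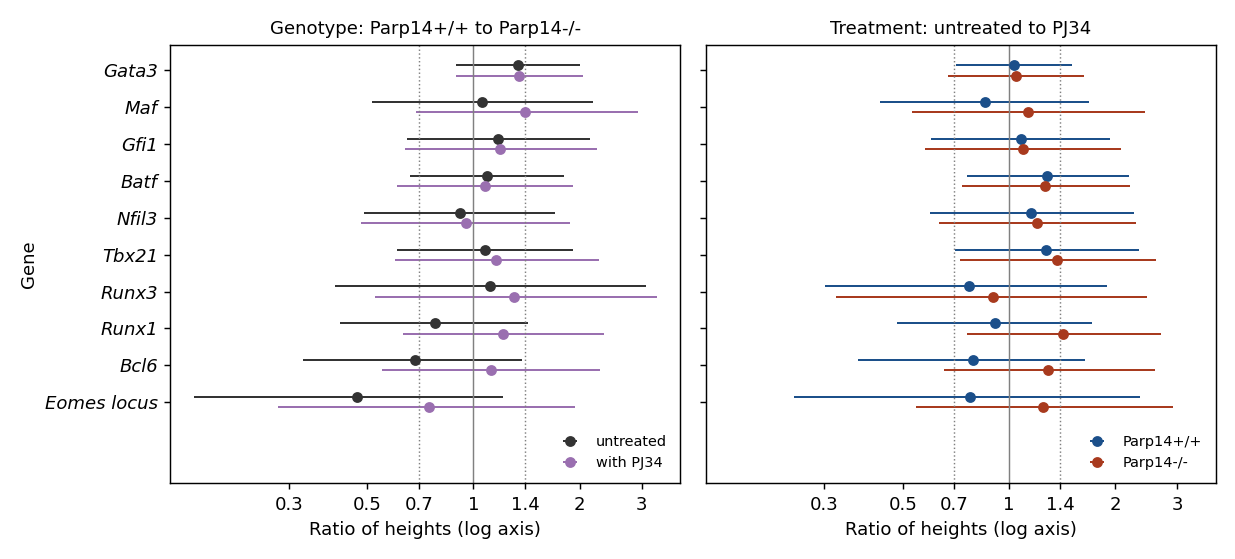
Ratios of average peak height for 9 lineage factor genes and the *Eomes* locus, on a log axis, between genotypes (left) and between untreated and PJ34-treated cells (right). Points are ratios of 2 single libraries, bars are exact 95% intervals that cover counting error only, and dotted lines mark 0.7 and 1.4. Every bar crosses 1. The *Eomes* locus and *Bcl6* untreated lie below 0.7, at 0.467 and 0.682, and *Runx1* in *Parp14*-/- lies above 1.4 at 1.42.

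For the untreated genotype pair, 1 of the 9 genes, *Bcl6*, was past the outer limits, where 20% of all genes with an interval were. With PJ34, none of the 9 was, against 24.3% of genes. In the PJ34 comparisons none of the 9 passed in *Parp14*+/+, against 15.5%, and *Runx1* passed in *Parp14*-/-, against 15.4%. Among 2673 genes with 1 active region and a mean height of at least 10, the 4 shares were 24.1%, 24.5%, 17.2% and 19%. None of the 36 single-pair intervals of the 9 genes lay off 1. Of all genes, not matched for height, 3.1%, 3.48%, 1.61% and 1.66% did in the 4 comparisons. The calls of *Bcl6* and *Runx1* are thus within counting error. Past the inner limits were *Gata3* upward and *Runx1* and *Bcl6* downward in the untreated genotype pair, 3 of 9 against 44.4% of genes. With PJ34 they were *Gata3*, *Maf*, *Runx3* and *Runx1*, all upward, 4 of 9 against 48.1%. In *Parp14*+/+ they were *Batf* and *Tbx21*, higher untreated, and *Runx3* and *Bcl6*, higher with PJ34, against 39.7%. In *Parp14*-/- they were *Batf*, *Tbx21*, *Runx1* and *Bcl6*, all higher untreated, against 35.9%. In the untreated genotype pair and in *Parp14*-/-, *Runx1* passed by its height of 27 from outside the intervals on the gene. By the tallest summit on the gene, its ratios there were 1.00 and 1.11.

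The 5 Th2 factors had in sum 163 fragments in *Parp14*+/+ against 142 in *Parp14*-/-, a ratio of 1.15 (0.911 to 1.45), with a median of 1.09 and 4 of 5 ratios above 1, where 49% of all genes with an interval had a ratio above 1. The Th1 factors *Tbx21* and *Runx3* had 38 against 35, a ratio of 1.09 (0.668 to 1.77), with the same median of 1.09. *Runx1* and *Bcl6* had 36 against 49, a ratio of 0.735 (0.464 to 1.15), with both genes below 1 and a median of 0.730. The sum of 49 includes the *Runx1* height of 27 from outside the intervals on the gene. The median of all genes with an interval was 1.00, and the difference between the groups was not tested. With PJ34 the ratios of sums were 1.21, 1.21 and 1.17, all close to the median of all genes of 1.14.

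For treatment, in *Parp14*+/+ the ratio of summed heights, untreated to PJ34, was 1.08 for the Th2 factors, 1.09 for the Th1 factors and 0.857 for *Runx1* and *Bcl6*, and all genes had a median of 0.958. In *Parp14*-/- the ratios were 1.14, 1.21 and 1.36, with a median over all genes of 1.08. The untreated *Parp14*-/- library stood highest of the 4 for *Runx1*, *Nfil3* and *Bcl6*, at 27, 24 and 22. How many of all genes had this library highest was not counted. For *Runx1* the value of 27 came from a summit outside the intervals on the gene, and the tallest summits on the gene were 21, 23, 21 and 19.

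**Figure D4:**
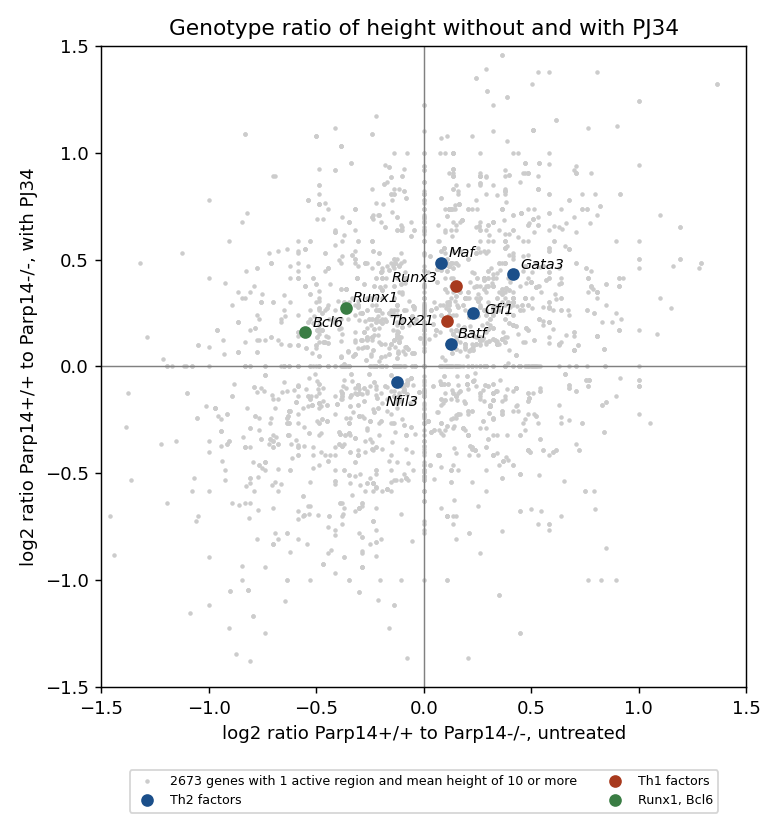
log2 ratio of average peak height between *Parp14*+/+ and *Parp14*-/- in untreated cells (x axis) and in PJ34-treated cells (y axis), for the 9 lineage factor genes and, in grey, 2673 genes with 1 active region and a mean height of at least 10. Each point is 1 gene, and 20 grey points lie outside the axes. *Gata3*, *Gfi1*, *Maf*, *Batf*, *Tbx21* and *Runx3* lie above 0 on both axes, *Nfil3* below 0 on both, and *Runx1* and *Bcl6* below 0 on the x axis and above 0 on the y axis.

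In the order of heights, *Gata3* came first and *Runx3* last in every library. *Gata3* exceeded *Batf*, the next in order in each library, by more than counting error in *Parp14*+/+ (ratio 1.67, 1.08 to 2.59) and in *Parp14*+/+ + PJ34 (2.07, 1.30 to 3.38). In *Parp14*-/- (1.36, 0.851 to 2.21) and *Parp14*-/- + PJ34 (1.65, 0.993 to 2.80) it did not. No other neighbours in the order differed beyond counting error. Whether the lead of *Gata3* differs between genotypes was not tested.

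Intervals spanned the whole gene in 6, 4, 5 and 4 of the 9 members, where 15.1%, 12.1%, 11.2% and 10.9% of all genes with an interval were spanned; all genes include many of lower height, and the shares were not matched for it. *Gata3*, *Maf* and *Nfil3* were spanned in every library. Of the 36 tallest summits on the 9 genes, 15 lay past the end of the gene, 12 inside it and 9 upstream of it. In *Parp14*-/- 1 summit was counted past the end, that of *Runx1*, which tied with the summit near its start, and the other libraries had 6, 4 and 4. Over all genes with an interval on the gene the share of tallest summits past the end was 39.3%, 33.9%, 31.2% and 31.4%.

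Letters of STAT, GATA, RUNX and T-box sites were searched on both strands in the 250 bases before the table's start of each gene. The RUNX site TGTGGT was found at *Gata3*, *Batf* and *Runx3*, 3 of 9, and before 11.3% of all genes. AGATAA was found at *Batf* alone, and before 5.89% of genes. TTCNNNGAA was found at *Bcl6* alone, and before 5.81% of genes, while TTCNNNNGAA, the spacing that STAT6 prefers, was in none of the 9 and before 4.62% of genes. The T-box letters GGTGTGA were in none of the 9 and before 2.89% of genes. In the 201 bases around the tallest *Parp14*+/+ summit, AGATAA was found at *Gfi1*, *Runx1* and *Runx3*, 3 of 9, and at 10.1% of all *Parp14*+/+ summits, and the other letters were found at none of the 9. These are matches of letters and not measured binding.

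Other transcription regulators of T helper cells gave the wider background. Of a list of 50, 43 were listed and 40 had an interval. In the untreated genotype pair 2 were past the outer limits upward and 7 downward, 22.5% in all, with a median ratio of 0.908. With PJ34 6 were past them upward and 2 downward, 20% in all, with a median of 1.04. In the PJ34 comparisons 7.5% were past the limits in *Parp14*+/+ and 15% in *Parp14*-/-, with medians of 1.00 and 1.17. Among all genes with an interval the shares were 20%, 24.3%, 15.5% and 15.4%. Those on the same side in both genotype pairs were *Batf3*, a partner of JUN related to *Batf*, and *Klf2*, a factor of resting and recirculating T cells. How many of all genes did so was not counted, and each interval of these genes crosses 1. *Batf3* had 13, 13, 9 and 7, with ratios of 1.44 (0.571 to 3.83) and 1.86 (0.689 to 5.50). *Klf2* had 10, 8, 18 and 16, with ratios of 0.556 (0.229 to 1.27) and 0.5 (0.185 to 1.24). In *Klf2* both *Parp14*-/- libraries were the higher, and in *Batf3* both *Parp14*+/+ libraries were.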

How the data were processed

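Per the labels and the study's methods, reads of 36 nt were mapped to mm9 with ELAND, duplicates were removed, and libraries were reduced to equal numbers of alignments. The authors called intervals with SICER (window 150 bp, gap 450 bp) against an Input made from both genotypes. They deposited interval tracks with summit heights and a gene table of average peak heights. Both are a signal of overlapping fragments with no further scaling. The table also holds 8 columns of other libraries, which were not used.

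Ratios and intervals were computed in Python 3.11.15 with scipy 1.17.1 and checked on simulated data. No pseudocount or test was used, since each condition has 1 library. All 10 members were to be named, with regulators past 1.4 or below 0.7 in the same direction in both genotype pairs, the 5 genes nearest *Gata3* and 4 cytokine genes. List genes were matched by transcript accession or label and mm9 coordinates (GENCODE, NCBIM37). Members and lists were chosen with earlier results of these data known. Alternatives were scaling, the highest summit at the gene, covered length, other limits, no interval required, a pseudocount of 1 and a summed height of at least 50.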

Additional observations from a re-analysis of the deposited data

Results flagged for a closer look

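In 3 genes a ratio lay on opposite sides of 1 in the 2 genotypes or in the 2 treatments. These are differences between single libraries and were not tested.

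For *Maf*, the ratio of untreated to PJ34 was 0.857 in *Parp14*+/+ and 1.13 in *Parp14*-/-. For *Runx1*, the genotype ratio was 0.778 untreated and 1.21 with PJ34. Its ratio of untreated to PJ34 was 0.913 in *Parp14*+/+ and 1.42 in *Parp14*-/-. By the tallest summit on the gene, 0.778 became 1.00 and 1.42 became 1.11. For *Bcl6*, the genotype ratio was 0.682 untreated and 1.12 with PJ34, and the ratio of untreated to PJ34 was 0.789 in *Parp14*+/+ and 1.29 in *Parp14*-/-. Opposite sides were seen in 2 of 9 members for genotype, where 34.8% of all genes with an interval had them, and in 3 of 9 for PJ34, where 42.7% did.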

How the results depend on the processing

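The 36 single-pair ratios of the 9 genes moved to the other side of 1 in 4 cases under scaling to a median ratio of 1. They did so in 11 when base pairs covered by intervals replaced height, and in none with the highest summit at the gene or a pseudocount of 1. With the highest summit, however, the untreated genotype ratio of *Runx1* went from 0.778 to 1.00, and its ratio in *Parp14*-/- from 1.42 to 1.11. Both calls past the outer limits turned with covered length, *Bcl6* untreated to 1.18 and *Runx1* in *Parp14*-/- to 0.998. The ratios of summed heights of the Th2 factors moved by less than counting error under the alternatives run for them, also without *Gata3*. By covered length, though, their genotype ratio with PJ34 went from 1.21 to the other side of 1, at 0.949. The untreated genotype ratio went from 1.15 to 1.01. The summed genotype ratio and the leaving out of *Gata3* were added after the data were seen.

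Members past the limits, 1 in the untreated genotype pair, became 0 with covered length or a summed height of at least 50 and 3 with limits of 1.2 and 0.83. With PJ34, 0 became 2 with covered length and 4 with the inner limits. In *Parp14*+/+ with or without PJ34, 0 became 4 with the inner limits. In *Parp14*-/- with or without PJ34, 1 became 4 with the inner limits and 0 with scaling, the highest summit, covered length, the pseudocount or a summed height of at least 50.

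Other regulators past the limits, 9, 8, 3 and 6 in the same order of comparisons, became 19, 14, 10 and 14 with the highest summit, 19, 14, 17 and 12 with covered length, 20, 18, 8 and 15 with the inner limits, and 1, 0, 0 and 0 with a summed height of at least 50. With no interval required the last became 11. A minimum summed height leaves fewer genes and inner limits admit more; other causes were not tested. No paired analysis was possible because each condition has 1 library. Heights of 9 to 60 limit the precision: at the height of *Gata3* a ratio of 1.35 had an interval from 0.894 to 2.05.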

Other observations

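Among the wider list of T helper regulators, 3 of 40 with an enriched interval (7.5%) had an untreated genotype interval that lay off 1, where 3.1% of all genes did, and they were singled out after their values were seen. *Junb*, an AP-1 subunit that activates *Il4*, had heights of 65, 73, 125 and 90, with ratios of 0.520 (0.379 to 0.707) untreated and 0.811 (0.587 to 1.12) with PJ34. *Prdm1*, which encodes the repressor BLIMP-1, had 21, 26, 40 and 25, with ratios of 0.525 (0.294 to 0.912) and 1.04 (0.577 to 1.88). *Bach2*, a repressor that restrains effector genes, had average heights of 6.26, 6.59, 7.78 and 6.59 over 27 active regions, with ratios of 0.805 (0.653 to 0.990) and 1.00 (0.808 to 1.24). In all 3 the untreated *Parp14*-/- library stood highest, as it did for *Nfil3* and *Bcl6*. It also did for *Runx1*, but only by a summit outside the intervals on that gene. The 3 regulators were picked by an untreated interval off 1, which lay below 1 in each and so favours this order. This is 1 library, and the share of all genes in which it stood highest was not counted.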
